A study of Mus musculus with 6 samples.

Results

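Cadherins are calcium-dependent adhesion receptors that hold neighbouring cells together, and catenins tie their cytoplasmic tails to actin. Both were examined in embryos lacking Paraxis (Tcf15), a basic helix-loop-helix factor of the somites, the paired blocks of mesoderm beside the neural tube. The members were 39 genes: 17 cadherins of the Cdh series (5 classical type I, 9 type II and 3 others), 6 catenins, 11 protocadherins and 5 large cadherins of the Celsr, Fat and Dachsous families. They were found by the gene names that part of the array files carry, joined to the other arrays by probe name. All 39 were on the array, with 86 probes, and 33 were bright enough to be tested among 19355 genes.

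RNA came from Paraxis-/- and WT C57BL/6J embryos at embryonic day 9.5, from the anterior presomitic mesoderm (PSM, the unsegmented tissue that forms somites) and somites I to IV. Each genotype had 3 pools of 5 embryos, and each pool of Paraxis-/- tissue was hybridised against a pool of WT tissue on 2 two-colour arrays with the dyes swapped. The 6 arrays thus hold 3 pairs of pools, named after their WT pool as pairs A, B and C; by the titles, pair B holds Paraxis-/- pool C and pair C holds Paraxis-/- pool B. Pool values are given in the order of the pairs. The labels give no litter, allele or breeding detail beyond the genotype. A pool hides the spread between its embryos, and p-values measure the spread of the ratio between pairs of pools. Values are log2 ratios of Paraxis-/- over WT averaged over both dyes, so a positive value means a higher level in Paraxis-/- tissue, or log2 intensities of a pool after normalization.

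In the somite, cadherins and their catenins are known for the epithelial state: PSM cells join into an epithelial ball around a cavity, with N-cadherin (Cdh2) at the apical junctions. Classical cadherins bind their like on the next cell, beta-catenin (Ctnnb1) and plakoglobin (Jup) bind the tail, alpha-catenins (Ctnna1, Ctnna2) reach actin, and delta-catenins (Ctnnd1, Ctnnd2) keep the receptor at the membrane. Protocadherins have a similar outer part but mostly do not bind these catenins, and Pcdh8 is known from the PSM at the forming boundary. Celsr, Fat and Dachsous proteins orient cells within a sheet.

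The array reads each gene through probes of 60 bases, and 6 are shown to make visible what was measured: the Cdh15 probe with the most negative mean ratio, 3 probes that hold the codons of the calcium-binding sequence shared by cadherin repeats, and 2 probes whose ends lie in different exons. Capitals mark those codons (asparagine, aspartate and asparagine in either spelling, any residue, and the first 2 bases of a proline codon). The motif was looked for on both strands after the probes had been seen.
Cdh15: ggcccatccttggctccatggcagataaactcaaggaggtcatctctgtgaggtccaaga
Pcdh19: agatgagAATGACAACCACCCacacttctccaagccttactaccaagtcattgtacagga
Cdh11: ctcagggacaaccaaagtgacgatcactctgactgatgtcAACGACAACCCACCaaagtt
Cdh4: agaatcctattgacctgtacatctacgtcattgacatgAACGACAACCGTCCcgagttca
Cdh6: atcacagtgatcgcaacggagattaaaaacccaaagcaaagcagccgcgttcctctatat
Celsr2: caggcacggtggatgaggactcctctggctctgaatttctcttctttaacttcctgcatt

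The files place these probes, on mouse build mm9, at chr8:125391031-125391090 on the plus strand (Cdh15), chrX:130220413-130220472 on the minus strand (Pcdh19), chr8:105191906-105191965 on the minus strand (Cdh11), chr2:179581965-179582024 on the plus strand (Cdh4), chr15:12972401-12974424 on the minus strand (Cdh6) and chr3:108195551-108195962 on the minus strand (Celsr2). The Cdh6 probe spans 2024 bases of the genome and the Celsr2 probe 412 bases, so both cross an intron; exon and UTR annotation was not used here. The marked codons occurred in 3 of the 86 member probes (3.49%), against 7 of 41174 gene probes (0.017%), these 3 included, and the other strand added none to either count. The longest run of bases shared by probes of different members was 14, and the 58 member probes kept had GC contents between 28.3% and 55.0%. The Cdh15 and Cdh6 probes shown stand for their genes below, while the Pcdh19, Cdh11 and Celsr2 ones are further probes of those genes and the Cdh4 one was not well above background in any measurement.

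Tcf15 itself was at 9.81, 9.76 and 9.71 in the Paraxis-/- pools, against 15.04, 15.24 and 15.23 in the WT pools, a log2 ratio of -5.41, negative in 3 of 3 pairs (SE 0.087, limma adjusted p = 0.000536). All 8 somite markers (the targeted Tcf15 among them, in both genotypes) and the 5 PSM markers tested were well above background on every array. So were all 12 endothelial markers, 11 of 11 epithelial markers tested, 8 of 9 primitive blood markers and 5 of 6 gut endoderm markers of the lists for neighbouring tissues. Detection thus does not tell the labelled tissue from its neighbours. The 6 arrays had 43379 gene spots each, of which 28683 to 31795 were well above background for Paraxis-/- RNA and 27080 to 30982 for WT RNA. Slide 1 held the arrays of pair A and slide 2 those of the other pairs, and no member's probe was saturated.

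No member passed the test at an adjusted p of 0.05 (limma, 3 pairs, Benjamini-Hochberg over all genes), where 4 of all 19355 genes did (0.0207%). At an unadjusted p of 0.05 there were 3 members of 33, Celsr1 and Ctnna2 with positive ratios and Cdh15 with a negative ratio. Over all genes that share was 5.07% in either direction, 2.34% with a positive and 2.73% with a negative ratio. Of the 33 members, 10 had the same sign in all 3 pairs, 5 positive (Cdh4, Cdh13, Ctnna2, Celsr1, Fat1) and 5 negative (Cdh3, Cdh15, Cdh6, Pcdh1, Celsr3), where 25.7% of all genes did, 13.5% positive and 12.2% negative. The means of Pcdh1 and Celsr3 lost their negative sign under other scalings, Pcdh1 at 0.02 with median centring in place of loess and Celsr3 at 1.8e-05 with Agilent's processed signals. The pools of the 2 genotypes did not overlap for Celsr1 (higher) and Cdh15 (lower), against 3.1% of all genes higher, 2.88% lower and 5.98% in either direction. As shares of the members tested, the 3 counts are 9.09%, 30.3% and 6.06%, beside the shares over all genes just given. With 3 pairs an exact sign-flip test of a single gene cannot go below p = 0.25.

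**Figure D1:**
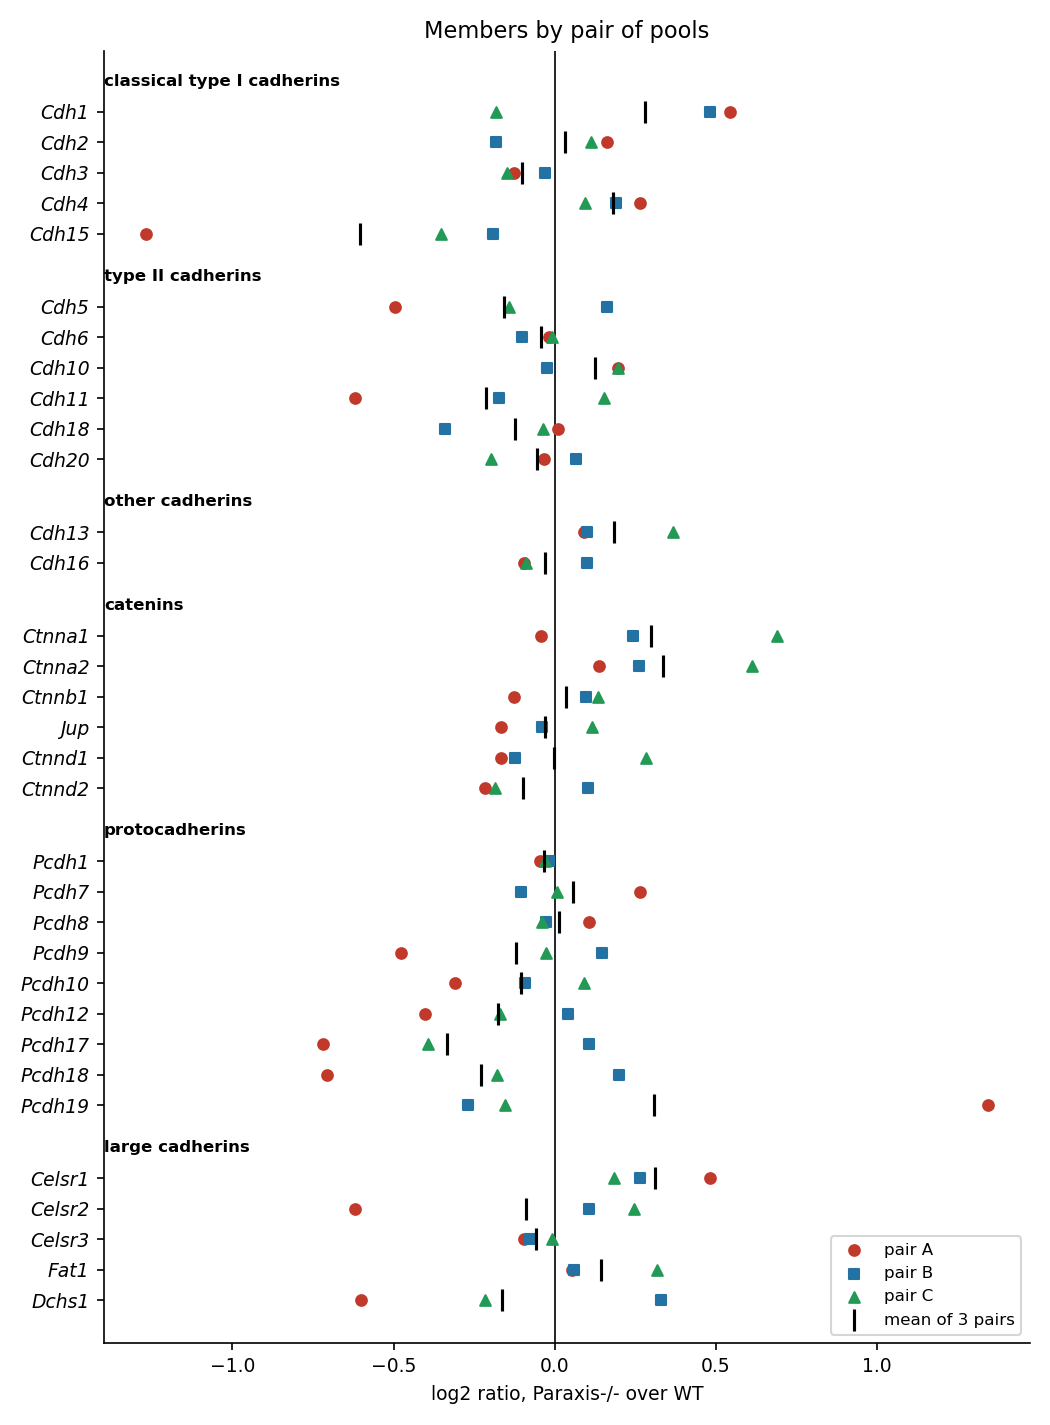
Each row is a member tested, grouped by role, and the horizontal axis is its log2 ratio of Paraxis-/- over WT; red circles, blue squares and green triangles are pairs A, B and C, and black ticks are the mean of the 3 pairs. Pair A holds the widest values, from -1.27 for Cdh15 to 1.34 for Pcdh19.

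Among the classical type I cadherins, Cdh15 (M-cadherin, an adhesion receptor of muscle precursors) had the most negative ratio of all members. Its level was 8.74, 9.15 and 8.96 in the Paraxis-/- pools of pairs A, B and C, against 10.003, 9.34 and 9.31 in the WT pools. Every Paraxis-/- pool lay below every WT pool, and the WT pool of pair A was the highest of the 6. The log2 ratio was -0.60 (SE 0.22, 95% interval -1.18 to -0.02, 3 of 3 pairs negative, unadjusted p = 0.0441, limma adjusted p = 0.95). The pairs gave -1.27, -0.19 and -0.35, and without pair A the mean was -0.27.

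N-cadherin (Cdh2), the classical cadherin of the somite epithelium, was at 11.81, 11.99 and 12.19 in the Paraxis-/- pools and at 11.65, 12.17 and 12.08 in the WT pools. The pools of both genotypes overlapped, and pairs A and C were positive while pair B was negative. Its log2 ratio was 0.03 (SE 0.094), with a 95% interval of -0.21 to 0.27, that is a level between 0.863 and 1.21 times that of WT tissue. A change of 1.5-fold lies outside this interval in either direction.

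E-cadherin (Cdh1, the classical cadherin of most epithelia) was at 7.60, 8.75 and 8.46 in the Paraxis-/- pools, against 7.05, 8.27 and 8.65 in the WT pools. Pairs A and B were positive and pair C negative, and the spread between the 3 pools of a genotype (SD 0.60 in Paraxis-/- and 0.83 in WT) was larger than the mean ratio of 0.28 (SE 0.16, limma adjusted p = 0.95). P-cadherin (Cdh3, known from surface ectoderm) lies 114 kb from Cdh1 by the mm9 positions of their probes, and its ratio was negative in all 3 pairs, with a mean of -0.10. R-cadherin (Cdh4) was at 9.42, 9.78 and 9.62 in the Paraxis-/- pools, against 9.16, 9.60 and 9.53 in the WT pools, a ratio of 0.18 (unadjusted p = 0.053). With WT RNA on the Cy5 dye alone the mean of Cdh4 was -0.05, and with Paraxis-/- RNA on Cy5 alone it was 0.41. The other Cdh4 probe kept gave a mean of 0.02, with pairs at -0.06, 0.15 and -0.02.

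**Figure D2:**
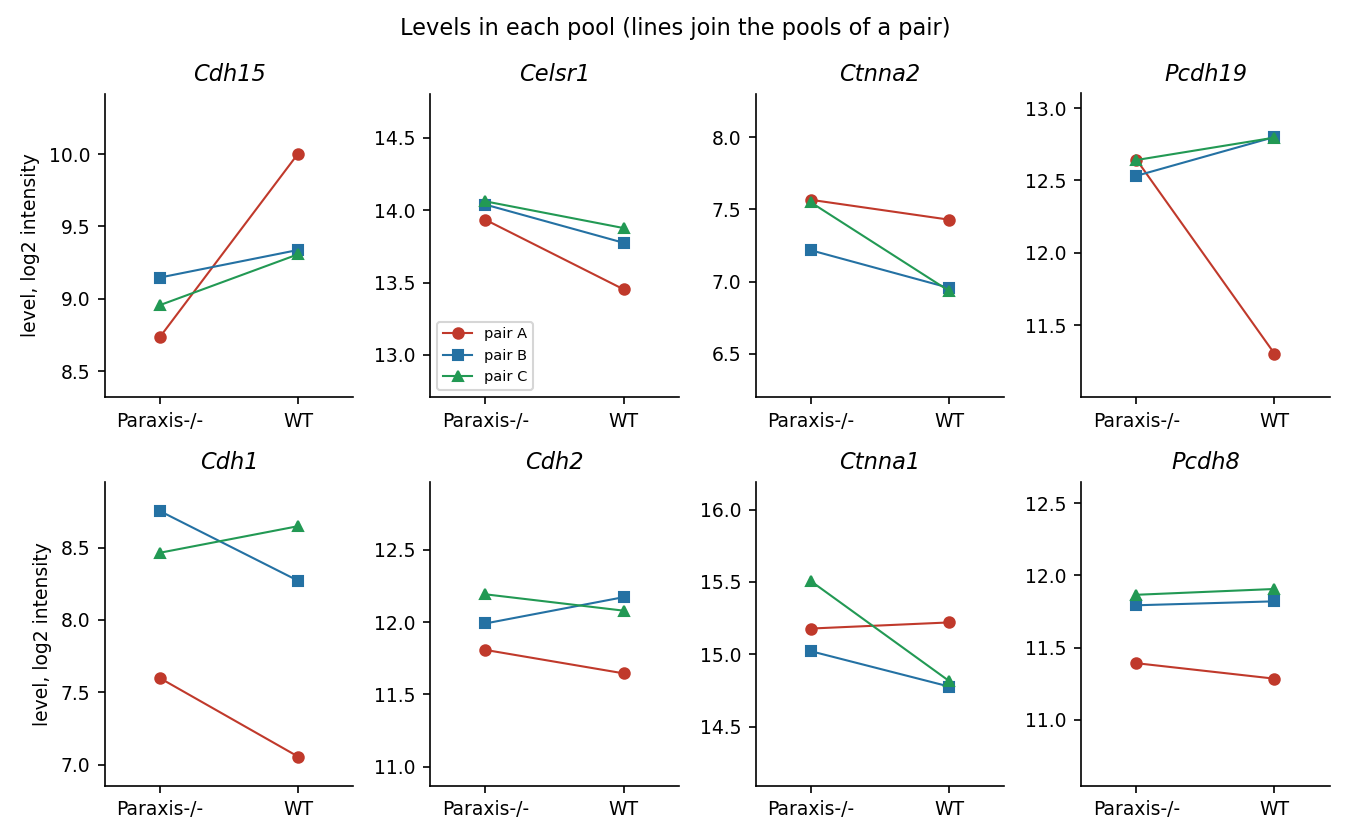
Log2 intensity after normalization of 8 members in the 3 Paraxis-/- pools (left in each panel) and the 3 WT pools (right); lines join the pools of a pair, and panels span equal ranges. The Paraxis-/- pools lie below the WT pools for Cdh15 and above them for Celsr1, and the WT pool of pair A stands at 11.30 for Pcdh19.

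Of the 9 type II cadherins, Cdh8, Cdh9 and Cdh12 were not well above background in any of 12 measurements and were not tested. The other 6 had mean ratios from -0.21 (Cdh11) to 0.12 (Cdh10), 5 of them negative. Cdh11 (OB-cadherin, of mesenchyme) was at 10.99, 11.26 and 11.38 in the Paraxis-/- pools, against 11.61, 11.43 and 11.22 in the WT pools. The genotypes overlapped, and the pairs gave -0.62, -0.17 and 0.15. All 3 Cdh11 probes kept had negative means, between -0.21 and -0.15 (the value of the probe shown above), and without pair A the mean was -0.01.

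VE-cadherin (Cdh5, of endothelial junctions) had ratios of -0.49, 0.16 and -0.14 in pairs A, B and C. The median of the 12 endothelial markers was -0.19, 0.13 and 0.06 in the same pairs, with summed intensities of 17118 to 23346 in Paraxis-/- pools and 17927 to 22252 in WT pools. The part of that tissue in the ratios of Cdh5 was not tested; in these bulk pools fewer cells of a type and less RNA per cell cannot be told apart. Cdh6, Cdh10, Cdh18 and Cdh20, cadherins known mainly from neural tissue, had mean ratios of -0.04, 0.12, -0.12 and -0.05. The 2 Cdh20 probes kept disagreed in sign, at -0.05 and 0.14. The mean of Cdh6 was -0.15 with Paraxis-/- RNA on Cy5 alone and 0.06 with WT RNA on Cy5 alone.

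Among the remaining cadherins, Cdh13 (T-cadherin, anchored by a lipid in place of a tail) was at 8.21, 7.97 and 8.07 in the Paraxis-/- pools, against 8.12, 7.87 and 7.70 in the WT pools. The genotypes overlapped, and the mean ratio was 0.18 (SE 0.086, limma adjusted p = 0.95). Its direction turned with the dye: the mean was 0.55 with Paraxis-/- RNA on Cy5 alone and -0.18 with WT RNA on Cy5 alone. Cdh16 (of kidney tubules) had a mean of -0.03, and Cdh17 (of gut epithelium) was not well above background in any measurement.

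The catenins that bind the cadherin tail stayed near 0 in the mean. Ctnnb1 was at 14.23, 14.32 and 14.40 in the Paraxis-/- pools and at 14.35, 14.22 and 14.27 in the WT pools, a ratio of 0.03 with a 95% interval of -0.18 to 0.25. Jup had a ratio of -0.03, with an interval of -0.24 to 0.18. The delta-catenins Ctnnd1 and Ctnnd2 had ratios of -0.0015 and -0.10. For these 4 genes the intervals of the ratios as computed lie inside 1.5-fold in both directions, and the genotypes overlapped. The ratio of Ctnnd1 turned with the dye, at -0.27 with Paraxis-/- RNA on Cy5 alone and 0.27 with WT RNA on Cy5 alone.

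Both alpha-catenins tested had positive means. Ctnna2 (alpha-N-catenin, mainly of neurons) was at 7.57, 7.22 and 7.55 in the Paraxis-/- pools, against 7.43, 6.96 and 6.94 in the WT pools. The pairs gave 0.14, 0.26 and 0.61, although the WT pool of pair A was above the Paraxis-/- pool of pair B, so the genotypes overlapped. Its ratio was 0.34 (SE 0.11, 95% interval 0.05 to 0.62, positive in 3 of 3 pairs, unadjusted p = 0.0302, limma adjusted p = 0.933), and its 3 probes kept were all positive, from 0.07 to 0.34. The size depended on the processing: it was 0.67 with Agilent's processed signals or the series matrix values, 0.20 with the mean of its kept probes and 0.20 without pair C. The median neural tube marker was at -0.24, 0.10 and 0.17 in pairs A, B and C, and its part in the ratio of Ctnna2 was not tested.

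Ctnna1 (alpha-E-catenin, the widely expressed form) was at 15.18, 15.02 and 15.51 in the Paraxis-/- pools, against 15.22, 14.78 and 14.82 in the WT pools. Pairs B and C were positive, at 0.24 and 0.69, and pair A was at -0.04. The mean was 0.30 (SE 0.15), with an interval of -0.09 to 0.69. The other Ctnna1 probe gave 0.06, and without pair C the mean of the probe reported was 0.10.

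Of the 11 protocadherins, 9 were tested, and 6 of these had negative means. Pcdh15 and Pcdh20 did not reach the limit of 4 measurements well above background in either genotype. Pcdh8 (the protocadherin of the anterior PSM) was at 11.39, 11.79 and 11.87 in the Paraxis-/- pools and at 11.29, 11.82 and 11.91 in the WT pools. The pools overlapped throughout, and the ratio was 0.01 with a 95% interval of -0.17 to 0.20, a level between 0.889 and 1.15 times that of WT tissue. The ratio of Pcdh8 followed the dye: it was 0.24 with WT RNA on Cy5 alone and -0.21 with Paraxis-/- RNA on Cy5 alone.

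Pcdh19 (a delta2 protocadherin, known to bind together with Cdh2) had the widest spread between pairs of all members, with ratios of 1.34, -0.27 and -0.16 in pairs A, B and C. Its level was 12.64, 12.53 and 12.64 in the Paraxis-/- pools, which lay close together, against 11.30, 12.80 and 12.80 in the WT pools. The WT pool of pair A was thus the lowest of the 6. Both of its arrays showed this, with 1.13 when WT RNA was on Cy5 and 1.56 when Paraxis-/- RNA was, and the probe shown above gave 0.45, -0.16 and -0.01. In pair A this ratio ranked 65 of 19296 genes. The mean of 0.31 (SE 0.34, limma adjusted p = 0.963) became -0.21 without pair A.

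Of the 5 PSM markers tested, 4 had their widest ratio in pair A. Tbx6 (a T-box factor of the PSM) had ratios of 2.43, -0.59 and 0.22 in pairs A, B and C, Dll1 (a Notch ligand) 0.66, -0.40 and 0.06, and Hes7 (of the segmentation clock) 0.62, -0.16 and 0.06. Msgn1 (a PSM helix-loop-helix factor) had 0.42, -0.11 and 0.05, while Mesp2 (of the forming somite boundary) had 0.02, -0.17 and -0.37, smallest in pair A. The summed intensity of the 5 PSM markers tested was 12748, 10038 and 15024 in the Paraxis-/- pools, against 5738, 13885 and 13779 in the WT pools, so that the WT pool of pair A was the lowest here too. All 5 were positive in pair A, none in pair B and 4 in pair C, where Pcdh19 was negative at -0.16. Their part in the ratio of Pcdh19 was not tested.

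Pcdh17 and Pcdh18 had the opposite pattern in pair A. Pcdh17 was at 8.70, 9.82 and 9.40 in the Paraxis-/- pools, against 9.42, 9.72 and 9.79 in the WT pools, with ratios of -0.72, 0.11 and -0.39 and a mean of -0.33 (SE 0.17, limma adjusted p = 0.95). Pcdh18 was at 9.88, 10.27 and 9.85 in the Paraxis-/- pools, against 10.59, 10.07 and 10.03 in the WT pools, with ratios of -0.71, 0.20 and -0.18. The genotypes overlapped for both. Without pair A the mean of Pcdh17 was -0.14 and that of Pcdh18 was 0.0097, so the negative mean of Pcdh18 rests on that pair. The negative means of Cdh5, Pcdh9, Celsr2 and Dchs1 likewise became 0.0098, 0.06, 0.18 and 0.06 without it.

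Pcdh12 (VE-cadherin-2, of endothelium) had ratios of -0.40, 0.04 and -0.17, each with the sign that Cdh5 had in that pair. Cdh16, Cdh20, Ctnnd2, Pcdh9, Pcdh17, Pcdh18 and Dchs1 had these signs too, so the match is not particular to endothelial members. Pcdh9 and Pcdh10, delta protocadherins known mainly from the nervous system, had means of -0.12 and -0.10, and Pcdh7 of 0.06. Pcdh1 gave the smallest spread between pairs of all members, with an SD of 0.014 and a mean of -0.03. That closeness comes after averaging the dyes, since its mean was 0.28 with Paraxis-/- RNA on Cy5 alone and -0.34 with WT RNA on Cy5 alone.

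Among the large cadherins, Celsr1 (a Flamingo-type receptor of planar cell polarity) had the lowest p of all members. It was at 13.93, 14.04 and 14.06 in the Paraxis-/- pools, against 13.45, 13.77 and 13.88 in the WT pools. Every Paraxis-/- pool was above every WT pool, by a narrow margin of 13.93 against 13.88. The ratio was 0.31, or 1.24-fold (SE 0.086, 95% interval 0.09 to 0.53, positive in 3 of 3 pairs, unadjusted p = 0.0158, limma adjusted p = 0.90). All 6 arrays were positive, and leaving out a pair gave means between 0.22 and 0.37.

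Its relatives did not share that pattern of signs. Celsr2 had ratios of -0.62, 0.11 and 0.25 in pairs A, B and C, and Celsr3 had ratios near 0 in each, with a mean of -0.06. The neural crest markers had a median of -0.55, 0.23 and 0.17 in those pairs. Their summed intensities were 6400 to 9213 in Paraxis-/- pools and 7256 to 10344 in WT pools. The medians of the neural tube list (-0.24, 0.10 and 0.17) and the endothelial list (-0.19, 0.13 and 0.06) had the same signs. The match is thus not particular to neural crest, and the part of these tissues in the ratio of Celsr2 was not tested.

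Fat1 (a giant cadherin at cell contacts) had ratios of 0.05, 0.06 and 0.32, but its 3 probes kept disagreed in sign, from -0.11 to 0.14. Dchs1 (the ligand of Fat4) was at 11.07, 11.31 and 10.95 in the Paraxis-/- pools, against 11.67, 10.99 and 11.17 in the WT pools, and the genotypes overlapped. Outside the member list, Fat4 had a ratio of 0.43 (pairs -0.21, 0.62 and 0.88, limma adjusted p = 0.95). Fjx1 (four-jointed, a secreted relative of the fly kinase that modifies Fat and Dachsous) was negative in 3 of 3 pairs at -0.42, -0.31 and -0.49, a mean of -0.41 (unadjusted p = 0.00257, limma adjusted p = 0.553).

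Set side by side, the roles had median log2 ratios between -0.10 and 0.08, where the median of all genes was 0.0039. The median was 0.03 for the 5 classical type I cadherins, -0.09 for the 6 type II cadherins tested, -0.10 for the 9 protocadherins, 0.02 for the 6 catenins -0.06 for the 5 large cadherins and 0.08 for the 2 other cadherins tested. By pair, the median catenin was at -0.15, 0.10 and 0.21 and the median protocadherin at -0.31, -0.02 and -0.04, so the catenins had the higher median in each pair, without a test. The classical type I cadherins were at 0.16, -0.03 and -0.15 in the same order, below the catenins in pairs B and C and above them in pair A. Over all 33 members, 13 means were positive and 20 negative, with a median of -0.03. The median size of a member's mean ratio without its sign was 0.12, against 0.07 over all genes.

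**Figure D3:**
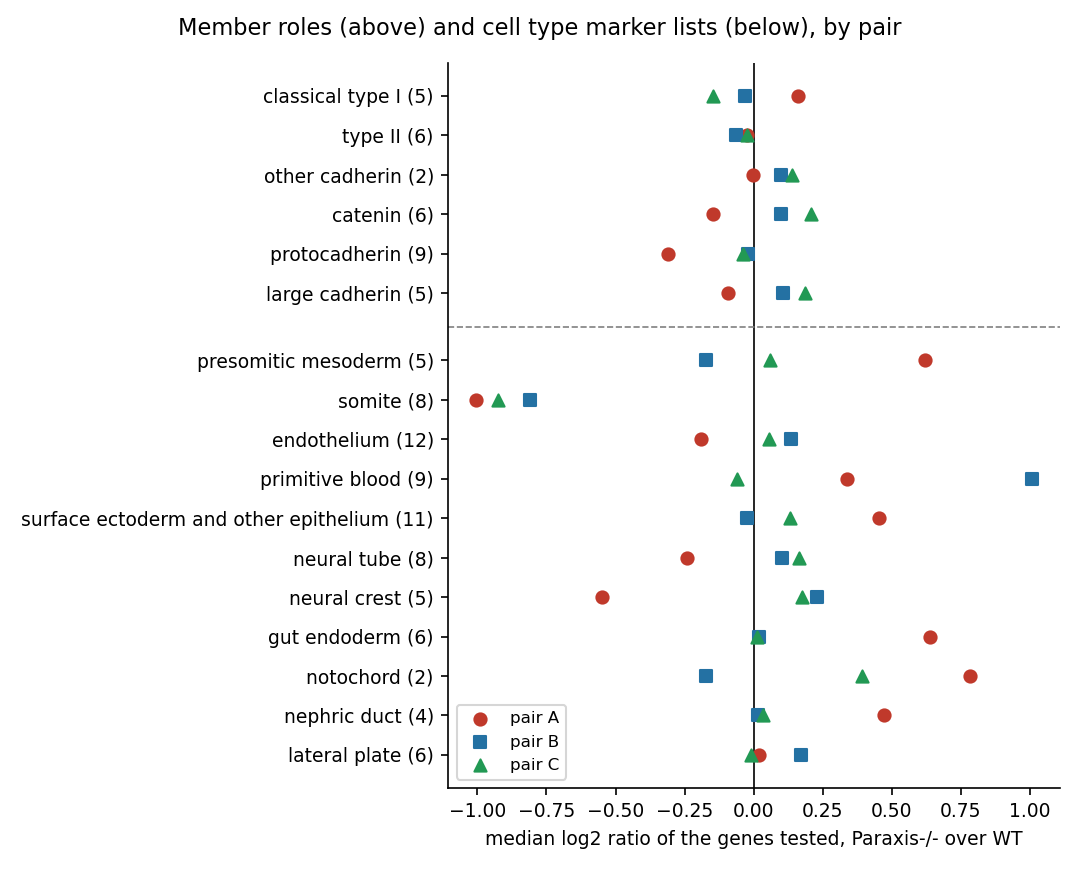
Median log2 ratio of Paraxis-/- over WT in pairs A (red circles), B (blue squares) and C (green triangles) for the roles of the members (above the dashed line) and for lists of cell type markers (below it), with the number of genes tested in brackets. The median of the somite markers, Tcf15 included, lies below 0 in all 3 pairs. The lists that stand apart in pair A include PSM, epithelium, gut endoderm, nephric duct, neural tube and neural crest.

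The members were spread most widely in pair A. There 7 of 33 members (21.2%) passed 1.5-fold, 1 higher (Pcdh19) and 6 lower (Cdh15, Cdh11, Pcdh17, Pcdh18, Celsr2, Dchs1), where 4.41% of all genes did. In pair B none did, against 1.22% of all genes, and in pair C there were 2 (6.06%), Ctnna1 and Ctnna2, both higher, against 3.11%. The SD over members was 0.46, 0.18 and 0.25 in pairs A, B and C, against 0.31, 0.18 and 0.25 over all genes. Across the 33 members the ratios of pairs A and B had a Pearson correlation of -0.03, those of A and C of 0.26 and those of B and C of 0.12; genes are not independent replicates and the pairs of B and C share a slide.

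Markers of neighbouring tissues also differed in that pair. The epithelial list had 10, 5 and 10 of 11 genes positive in pairs A, B and C, with medians of 0.45, -0.02 and 0.13, and summed intensities of 29444 to 37345 in Paraxis-/- pools against 19140 to 30595 in WT pools. The gut endoderm list had medians of 0.64, 0.02 and 0.01, with Cdx2 at 3.11 in pair A and -0.51 and -0.82 in the others. The primitive blood list stood highest in pair B, with medians of 0.34, 1.01 and -0.06. The somite list, by contrast, was at -1.004, -0.81 and -0.92. It holds the targeted gene Tcf15 itself, and of its 8 genes 7 had negative means and 1 (Meox1, 0.24) a positive one. Pair A and its slide cannot be told apart, and the part of the makeup of that pair's tissue in the members' ratios was not tested.

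The number of pairs limits the precision. For 24 of 33 the 95% interval of the mean ratio lay inside 1.5-fold in both directions, among them Cdh2, Ctnnb1, Jup and Pcdh8. For the other 9 (Cdh1, Cdh15, Cdh11, Ctnna1, Ctnna2, Pcdh17, Pcdh18, Pcdh19 and Dchs1) it reached past 1.5-fold in at least 1 direction. The offset of 50 added to the intensities draws ratios of dim members toward 0, so their intervals do not bound the change in RNA. Jup had a mean log2 intensity of 6.92, where Cdh17, not well above background in any measurement, was at 6.21. In simulated pairs with the spread of these data, the test called 18% of genes changed by 1.5-fold, 70% of those changed by 2-fold and 98% of those changed by 4-fold, among 19282 genes. The simulation held 50 changed genes of each size and gave 153 calls, where the data gave 4. More calls make the adjusted threshold easier to pass, so these shares do not carry over to the members.

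**Figure D4:**
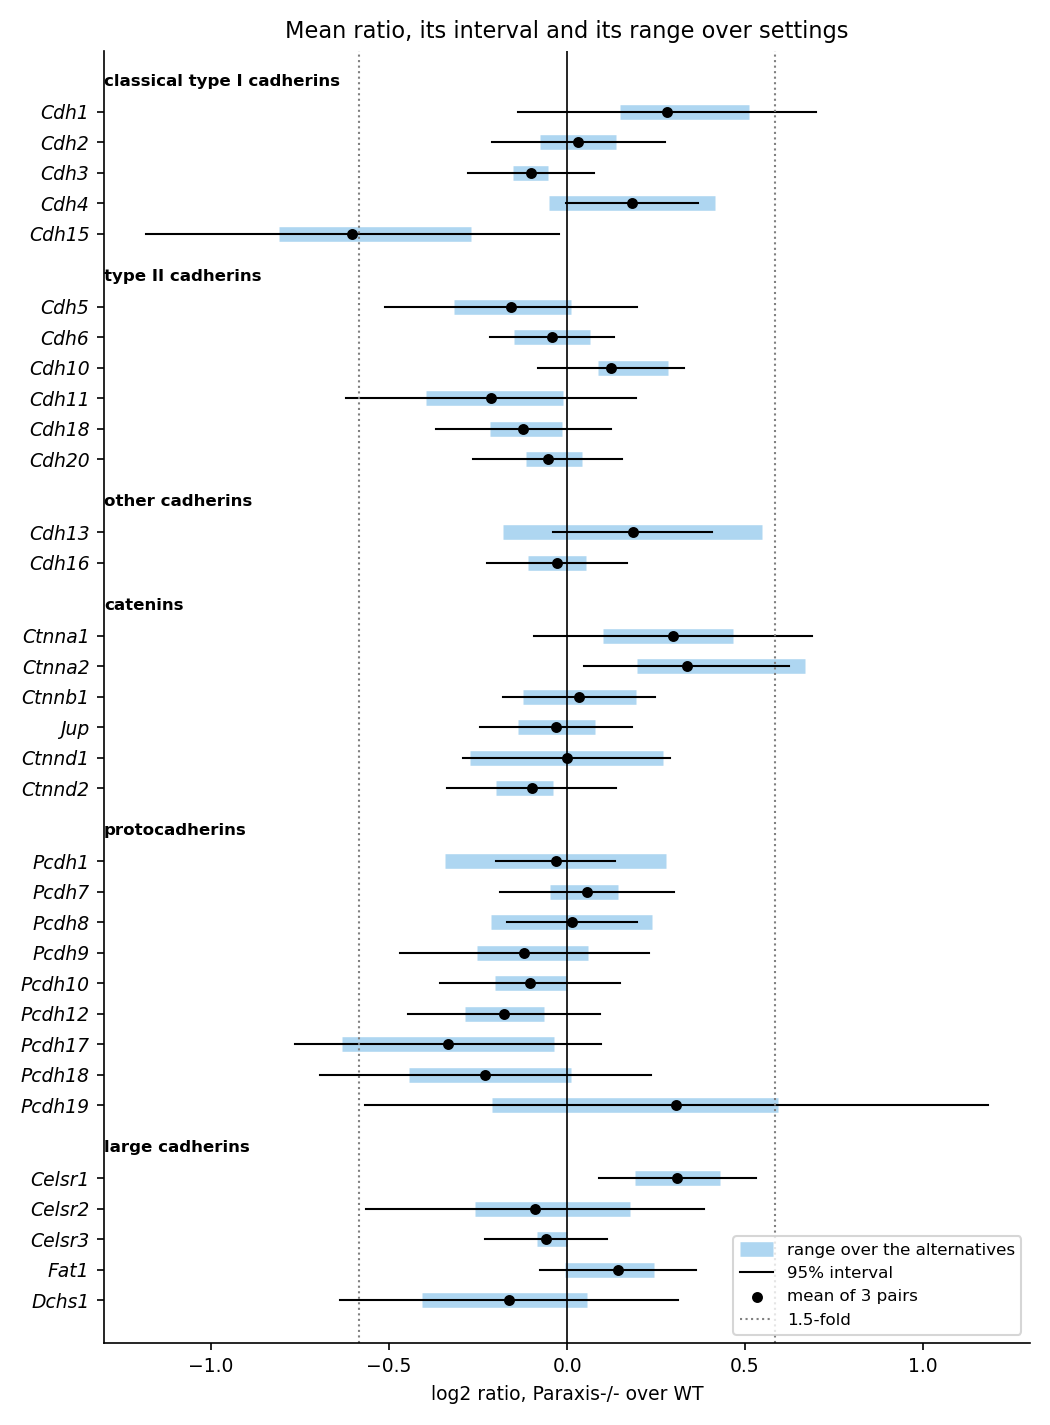
Mean log2 ratio of Paraxis-/- over WT for each member tested (points) with its 95% interval from limma (lines) and its range over the processing alternatives (blue bars); dotted lines mark 1.5-fold. The intervals of 24 members lie between the dotted lines, and those of Celsr1, Ctnna2 and Cdh15 leave out 0 before adjustment over all genes.

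The other genes of cell junctions, 52 in 5 lists, gave 43 tested and again none past the adjusted threshold. At an unadjusted p of 0.05 there were 2, Fjx1 (negative) and Pkp2 (plakophilin of desmosomes, 0.26, unadjusted p = 0.047). That unadjusted threshold was passed by 5.07% of all 19355 genes in either direction, and 2 among the 43 tested is not above this share. The 16 partners of cadherin junctions tested, such as nectins, afadin, vinculin and ZO-1, had a median of -0.01 and mean ratios from -0.30 to 0.17. All 6 desmosome genes tested had positive means, from 0.04 to 0.26, with pair medians of 0.40, 0.08 and 0.01, beside the epithelial medians given above; the part of epithelium in them was not tested. The 7 genes of cadherin shedding and turnover had a median of 0.01.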

How the data were processed

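RNA of 3 pools per genotype was hybridised on 6 two-colour Agilent arrays (250 ng total RNA, RNA integrity number of at least 7.9, per the labels' protocols). Per the file headers, the authors extracted the intensity of every spot in both dyes with Feature Extraction 10.7.3.1 or 10.5.1.1, while the submitters' processing notes name 8.5.1.1. On every array the deposited matrix of the series repeats the scanner's log10 ratio, red over green, and its median is 0.

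From the deposited intensities, log2 ratios were computed with limma 3.58.1 in R 4.3.3: normexp with an offset of 50 on median signals (in place of the planned means, which part of the files do not carry), loess within arrays, control spots at weight 0, outlier spots left out, and spots of a probe averaged. Ratios were turned to Paraxis-/- over WT and the 2 arrays of a pair averaged, leaving 3 pairs tested against 0 with lmFit and eBayes and Benjamini-Hochberg adjustment. Pool levels came after loess and Aquantile. Probes stayed in if they were well above background in 4 or more of 6 measurements of Paraxis-/- or of WT RNA, and the brightest kept probe stood for its gene. Of 41174 gene probes, 26690 were named through a RefSeq accession, 5189 by symbol, 948 by synonym and 8347 by the file alone. The script was tested on simulated data.

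Pools were paired by the titles. The descriptions pair B and C otherwise: arrays paired by title correlated at 0.379, 0.557 and 0.281 over genes in pairs A, C and B, and those paired by description at -0.119 and -0.0553 on the slide of pairs B and C. All 39 members are named; values of every pool are given for members with an unadjusted p under 0.05 or a ratio of at least 0.3 with the same sign in all pairs, and for the brightest members of each role; other pools' values were added where they show the spread between pairs. The members, lists and markers were chosen with earlier results of these data known.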

Additional observations from a re-analysis of the deposited data

How the results depend on the processing

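No member passed an adjusted p of 0.05 under any of 21 alternatives, the lowest being 0.0587 for Cdh15 and 0.114 for Pcdh19, both with slide as a term. The alternatives are not all distinct. Agilent's processed signals and the series matrix values gave the same results, and the slide of pairs B and C alone is the fit without pair A. Of 33 members, 13 kept the sign of their mean under every alternative that gave them a value. The count of all genes called, 4 as reported, was 18 with ratios scaled between arrays, 2 within the slide of pairs B and C alone, 2 with Paraxis-/- RNA on Cy5 alone and 0 to 2 when each pair was left out in turn. It was 66 with the pair as a replicate block over 6 arrays, 91 with the arrays as if independent (no replicate block) and 76 with slide as a term; these fits count the arrays of a dye swap separately or add a slide effect, and the pairing changed no member's call. With pools taken from the descriptions, 16 members had the same sign in all pairs in place of 10, and 5 genes were called. Taking a RefSeq probe where a gene has one, chosen after seeing the data, gave 4 genes called, no member among them. There, 10 members had the same sign in all pairs. With 3 pairs, changes of 1.5-fold were mostly not detectable, and dim members are open to background; dye bias was widest for Cdh13, Pcdh1, Pcdh17, Ctnnd1, Cdh4 and Pcdh8.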
